A study of Mus musculus with 6 samples.

Results

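The cytosolic ribosomal protein genes encode the proteins of the ribosome that translates the mRNAs of the nucleus. They were taken from the count tables by symbol (Rpl or Rps followed by a number, with Rplp0, Rplp1, Rplp2 and Rpsa), without the S6 kinases and without rows marked as pseudogenes by their symbol. This gave 84 genes of 24062, of which 51 have symbols of large subunit and 33 of small subunit proteins. The 33 include Rps4l, which GENCODE annotates as a transcribed processed pseudogene. Of the 84, 7 are paralogs of another member (Rpl3l, Rpl7l1, Rpl10l, Rpl22l1, Rpl39l, Rps4l and Rps27l). RNA was sequenced from cells sorted as CD31+ckit+Vmed or CD31+ckit+Vhigh, where V is the fluorescence of a Venus reporter placed behind Gata2, with 3 libraries per fraction numbered 1 to 3. All 6 libraries came from the aorta-gonad-mesonephros (AGM) of E10.5 Gata2Venus embryos on a C57BL/6JOlaHsd background, and the embryos were heterozygous for the reporter, so no sample without it was included. The sort took Gata2 reporter level and surface markers, and no untreated or unsorted control was among the libraries. Levels are given as CPM, in which each count is divided by the library's total on genes and scaled to a common total, and these totals were 8296831 to 12035206 counts.

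A ribosome carries each of these proteins in a fixed number, so that their genes are usually expressed together and at high level. Their mRNAs typically begin with a C followed by a run of pyrimidines, the terminal oligopyrimidine (TOP) sequence, through which TOR signaling controls their translation. Blood formation is sensitive to ribosome supply, and loss of 1 copy of several of these genes causes Diamond-Blackfan anemia in humans. The genes have been copied many times into the mouse genome as processed pseudogenes, whose sequence resembles the mRNA.

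The start of the transcript was read from RefSeq (GRCm38.p6), where 63 of the 84 genes had an entry, with 75 annotated starts. A tract of C followed by at least 4 bases that are each C or T, beginning at the annotated start itself on the transcribed strand, was found at 13 of the 75 starts (17.3%) and in 13 genes. Over all 32851 starts of the table it was found at 2.51%, at 0 of 74 starts of mitochondrial ribosomal protein genes, and at 2 of 50 starts of translation factor genes. In a wider search, for C followed by at least 5 bases that are each C or T anywhere within 25 bases on either side of the start, the shares lay closer together, with 60% of the member starts, 48.6% of those of mitochondrial ribosomal protein genes, 34% of those of translation factor genes and 35.0% of all starts. The 8 examples that follow were chosen after their values were seen, to span the levels of the genes with a tract, and Rpl4 is added as the member with the highest mean CPM. Each line holds 15 bases before and 15 bases from the start, 5′ to 3′, with the tract in capitals.
Rpl14 (chr9:120571502-120571531, plus strand): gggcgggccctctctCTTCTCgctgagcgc
Rps18 (chr17:33955651-33955680, minus strand): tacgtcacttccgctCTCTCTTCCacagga
Rplp2 (chr7:141447636-141447665, plus strand): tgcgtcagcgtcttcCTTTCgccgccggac
Rpl15 (chr14:18270972-18271001, minus strand): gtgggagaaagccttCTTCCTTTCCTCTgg
Rpl35 (chr2:39005117-39005146, minus strand): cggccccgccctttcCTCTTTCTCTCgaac
Rps6 (chr4:86857353-86857382, minus strand): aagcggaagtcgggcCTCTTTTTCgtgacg
Rpl38 (chr11:114668565-114668594, plus strand): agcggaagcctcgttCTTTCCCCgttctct
Rps27 (chr3:90213634-90213663, minus strand): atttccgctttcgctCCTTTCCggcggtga
Rpl4 (chr9:64173372-64173401, plus strand): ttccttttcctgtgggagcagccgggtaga
The tracts were 5 to 13 bases long. The genes that carry one had mean levels over the 6 libraries from 3.67 CPM (Rpl28) to 598 CPM (Rpl14), so a tract at the annotated start was found at both low and high levels. No match means only that these letters do not begin at the listed start.

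The libraries were first checked against their labels. Kit, a surface marker of the sort, had 64.1, 208 and 59.1 CPM in Vmed replicates 1, 2 and 3 and 254, 490 and 521 CPM in the Vhigh replicates, and all 3 Vhigh libraries lay above all 3 Vmed libraries. Gata2 had 50.3, 29.4 and 68.3 CPM in Vmed and 39.2, 82.5 and 142 CPM in Vhigh, so the fractions overlapped. Pecam1, which encodes CD31, the other surface marker of the sort, had 118, 569 and 476 CPM in Vmed and 160, 224 and 436 CPM in Vhigh (log2 fold change -0.52, standard error 0.62), with overlapping fractions and the lowest level in replicate 1 of both. Of 18 stem and progenitor markers, 17 were in the files and 14 had at least 3 counts in every library, with a higher summed level in Vhigh in each pair. Of 14 macrophage and monocyte markers, 13 were in the files and 8 had at least 3 counts in every library, with a lower summed level in Vhigh in each pair. The 12 mesenchyme and mural markers summed to 2315 to 4665 CPM in Vmed and 287 to 723 CPM in Vhigh. Both of the latter lists were detected in every library of a sort on CD31 and ckit.

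Together the ribosomal protein genes took a small and variable share of the counts. In Vmed they held 3.31%, 1.99% and 1.32% of the counts on genes in replicates 1, 2 and 3. In Vhigh they held 4.28%, 2.81% and 1.46%. The share was higher in Vhigh than in Vmed in each of the 3 same-numbered pairs, by 1.29-fold, 1.41-fold and 1.11-fold. The fractions overlapped, because replicate 1 was the highest and replicate 3 the lowest library in both. As summed CPM, the mean was 22059 ± 10165 (SD, n = 3) in Vmed and 28484 ± 14139 (SD, n = 3) in Vhigh, a difference smaller than either SD. On the log2 scale the difference of the means was 0.34, and the 3 pair differences were 0.37, 0.50 and 0.14. With 1 library left out, which also breaks up its pair, it was -0.02 without Vhigh replicate 1 and 0.02 without Vmed replicate 3. Counting error was small beside this spread, as the widest 95% Wilson interval of a share was ± 0.0122 percentage points. In bulk libraries such as these, fewer cells that express the genes and less ribosomal protein mRNA per cell cannot be told apart.

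The replicate number separated the libraries more than the fraction did. Replicate 1 had 2.52 times the summed CPM of replicate 3 in Vmed and 2.94 times in Vhigh. The highest of the 6 sums was 3.25 times the lowest. The same ratio was 2.08 for the 77 mitochondrial ribosomal proteins, 1.89 for the 68 ribosome biogenesis genes and 1.41 for the 50 translation factors. This ratio mixes replicate number and fraction. For ribosome biogenesis it was that of Vhigh replicate 1 to Vmed replicate 1. In that list replicate 1 had 0.91 times the sum of replicate 3 in Vmed and 1.20 times in Vhigh. Marker lists had larger ratios than the members, with 4.91 for endothelial, 5.78 for stem and progenitor and 12.7 for macrophage and monocyte markers.

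**Figure D1:**
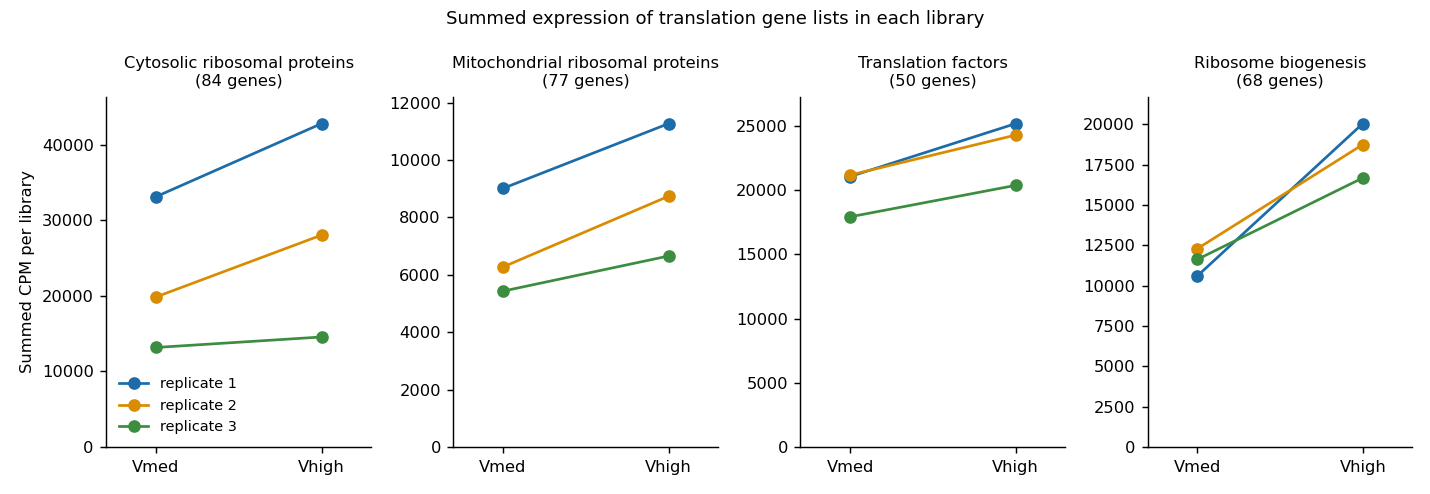
Summed CPM per library (vertical axis, with its own scale in each panel and starting at 0) for 4 gene lists in Vmed and Vhigh, with a line joining the libraries of the same replicate number. For the 84 cytosolic ribosomal proteins the lines lie apart in the order of replicate 1, 2 and 3 and the fractions overlap, while for ribosome biogenesis the 3 Vhigh values (16683 to 20053 CPM) lie above the 3 Vmed values (10595 to 12288 CPM).

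Several properties of the libraries moved with the replicate number as well. Alignments to more than 1 place numbered 2.02, 1.49 and 1.11 per count on a gene in Vmed replicates 1, 2 and 3 and 2.27, 1.81 and 1.05 in Vhigh, in the same order as the ribosomal protein share. Rn45s, the precursor of the ribosomal RNAs, held 1.53%, 0.89% and 10.5% of the counts in Vmed and 1.50%, 0.92% and 7.47% in Vhigh, so replicate 3 was the highest in both. Reads outside annotated genes numbered 0.66, 0.98 and 0.18 per count on a gene in Vmed and 0.65, 1.56 and 0.16 in Vhigh. Genes with a count numbered 14021, 15812 and 12709 in Vmed and 10427, 18460 and 13434 in Vhigh. Replicate 2 was the highest in both fractions, and Vhigh replicate 1 was the lowest library. The 16 endothelial markers summed to 1831, 4991 and 6833 CPM in Vmed and 1391, 1769 and 4658 CPM in Vhigh, the reverse of the order of the ribosomal protein share, and 13 of the 16 had at least 3 counts in every library. The stem and progenitor markers had the same reverse order, with 660, 1321 and 1555 CPM in Vmed and 1382, 2865 and 3817 CPM in Vhigh. The macrophage and monocyte markers had the order of the ribosomal protein share, with 2353, 1146 and 1078 CPM in Vmed and 866, 205 and 185 CPM in Vhigh. The 12 erythroid markers in the files, of which Hba-a1, Hba-a2, Hbb-bt and Hbb-bs were at 0 in every library, summed to 602, 369 and 188 CPM in Vmed and 233, 101 and 161 CPM in Vhigh. The part of these properties in the ribosomal protein share was not tested.

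Single members spanned a wide range. The mean over the 6 libraries was between 0.10 CPM (Rpl3l) and 3980 CPM (Rpl4), with a median of 87.6 CPM. There were 9 members at 1000 CPM or more and 30 under 20 CPM, and the latter together supplied 0.791% of the members' counts. The 10 leading members, among them Rpl4 and Rps3, took 61.9 to 69.4% of the members' counts in a library. The order of the members was alike in all libraries, with a Pearson correlation of log2(CPM + 0.5) over the 84 genes of 0.92 to 0.99 for the 15 pairs of libraries. These points share gene length, base composition and the way reads were assigned.

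Among the highest members per kilobase of transcript were Rpl4 and Rpl8. Rpl4 (chr9:64173375-64178666), which reaches into the peptide exit tunnel, had 2843, 2337 and 1348 RPKM (CPM per kilobase) in Vmed replicates 1, 2 and 3 and 4259.5, 3050 and 1688 RPKM in Vhigh. Rpl8 (chr15:76904078-76906314), which lies near the peptidyl transferase center, had 2833, 1676 and 1242 RPKM in Vmed and 3275, 2465 and 1241 RPKM in Vhigh. In both genes replicate 1 was the highest and replicate 3 the lowest library of each fraction, and the fractions overlapped. Lengths are those of 1 principal transcript per gene, and for Rps20 the only coding model is 3706 bases long, so that its level per kilobase is understated.

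**Figure D2:**
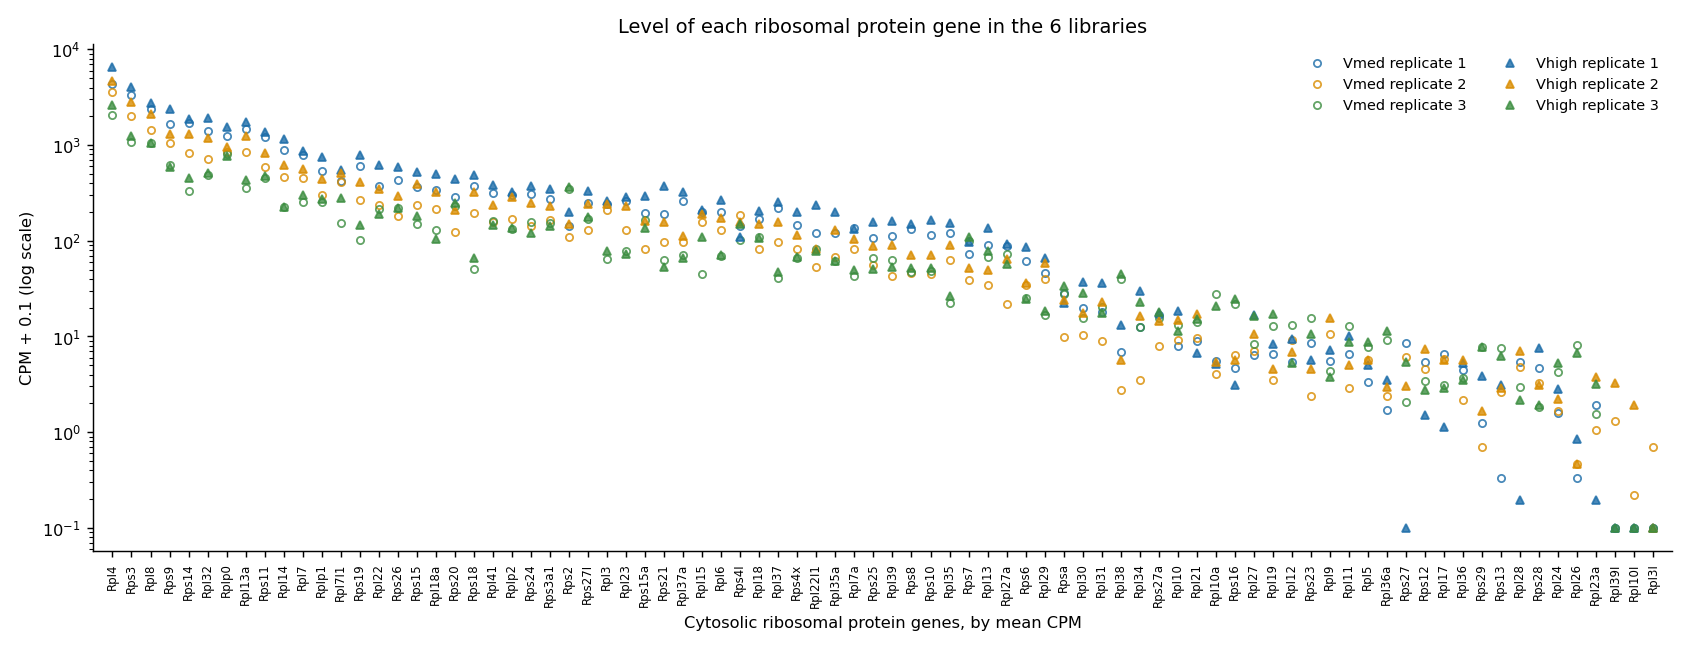
CPM + 0.1 on a log scale (vertical axis) for 82 ribosomal protein genes, ordered by mean CPM, with open circles for Vmed, filled triangles for Vhigh and a color for each replicate number. Among the leading genes the points of replicate 1 lie highest and those of replicate 3 lowest, and among the genes under 20 CPM replicate 3 often lies highest.

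Much of the sequence of these genes is also present elsewhere among annotated genes. Of the 50-base windows of each principal transcript, the length of a read, the share that also occurs letter for letter in an annotated transcript of another gene had a median of 56.5% over the 84 members and of 0% over 23680 genes. At least 50% of windows were shared in 52 members (61.9%), against 8.33% of all genes. Rps3 shared 2.96%, Rpl8 7.86% and Rpl4 16.4% of windows. Rps27 shared 98.6%, Rpl35 95.1% and Rpl5 93.8%. Of the 30 members under 20 CPM, 24 shared at least 50% of windows, against 1 of the 9 members at 1000 CPM or more (Rpl13a, 57.4%). Across the 84 genes, which are not independent replicates, the Spearman correlation of mean CPM with the shared percentage was -0.45. A read that fits a second place equally well was tallied as not unique in these tables, so the level of a member with many shared windows is uncertain and levels of different members should not be read as their mRNA ratio.

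**Figure D3:**
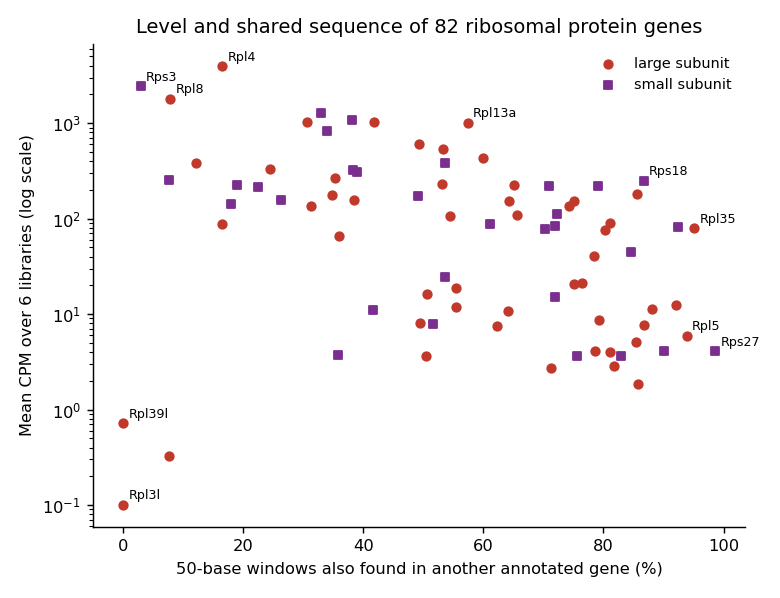
Mean CPM over the 6 libraries (vertical axis, log scale) against the percentage of 50-base windows that also occur in another annotated gene (horizontal axis) for large subunit (circles) and small subunit (squares) genes. Among 82 genes plotted, Rps3, Rpl8 and Rpl4 lie at 2.96 to 16.4% shared windows, whereas Rps27 and Rpl5 lie at over 90% and at 4.10 and 5.93 CPM.

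To ask which single genes differed between the fractions, edgeR's quasi-likelihood test was fitted to 12688 genes that passed its filter on low counts. Of the 84 members, 80 passed, and the other 4 (Rpl3l, Rpl10l, Rpl26 and Rpl39l) are described by their counts. No member had an adjusted p under 0.05, where the share of all tested genes was also 0%. At an unadjusted p under 0.05 there were 0 members as well, against 2.04% of all tested genes, and the smallest unadjusted p of a member was 0.34. For each tested member the Benjamini-Hochberg adjusted p of this edgeR fit was 0.9998. With the replicate number as a block, 0 members had an unadjusted p under 0.05, against 4.16% of all tested genes.

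The fitted log2 fold change of Vhigh over Vmed was above 0 for 71 of the 80 tested members (88.8%), against 48.9% of all tested genes. Its median was 0.34 over the tested members and -0.02 over all tested genes. By subunit, it was above 0 in 43 of 47 tested large subunit genes with a median of 0.36, and in 28 of 33 small subunit genes with a median of 0.32. With the replicate block it was again above 0 for 71 members, against 45.6% of all tested genes, with a median of 0.33. In the fit by fraction alone, leaving out Vhigh replicate 1 turned the direction, with 34 of 82 tested members above 0 and a median of -0.15, while its same-numbered Vmed library, the highest of that fraction, stayed in. Vhigh replicate 1 was also the library with the fewest genes with a count (10427, against 12709 to 18460 in the others). The part of this in the direction was not tested. Without Vmed replicate 1, 70 of 82 were above 0 with a median of 0.73. The median was 0.15 without Vmed replicate 2, 0.21 without Vmed replicate 3, 0.47 without Vhigh replicate 2 and 0.65 without Vhigh replicate 3.

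Of the 84 members, 68 were higher in Vhigh in pair 1, 76 in pair 2 and 49 in pair 3, against 38.4%, 57.5% and 51.7% of all tested genes. Most members were higher in Vhigh in each pair, but in pair 3 their share was only a little above that of all tested genes. Within the same-numbered pairs, 39 of the 84 members were higher in Vhigh in 3 of 3 pairs, against 15.2% of all tested genes. Only Rpl17 among the members was lower in Vhigh in 3 of 3 pairs, against 15.4% of all tested genes. Rpl34 and Rpl27 were the 2 members with every Vhigh library above every Vmed library, where the share over all tested genes was 4.15%. No member had every Vhigh library below every Vmed library, against 4.71% of all tested genes. The median standard error of the members' log2 fold changes was 0.72 in the fit by fraction alone and 0.40 with the replicate block.

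**Figure D4:**
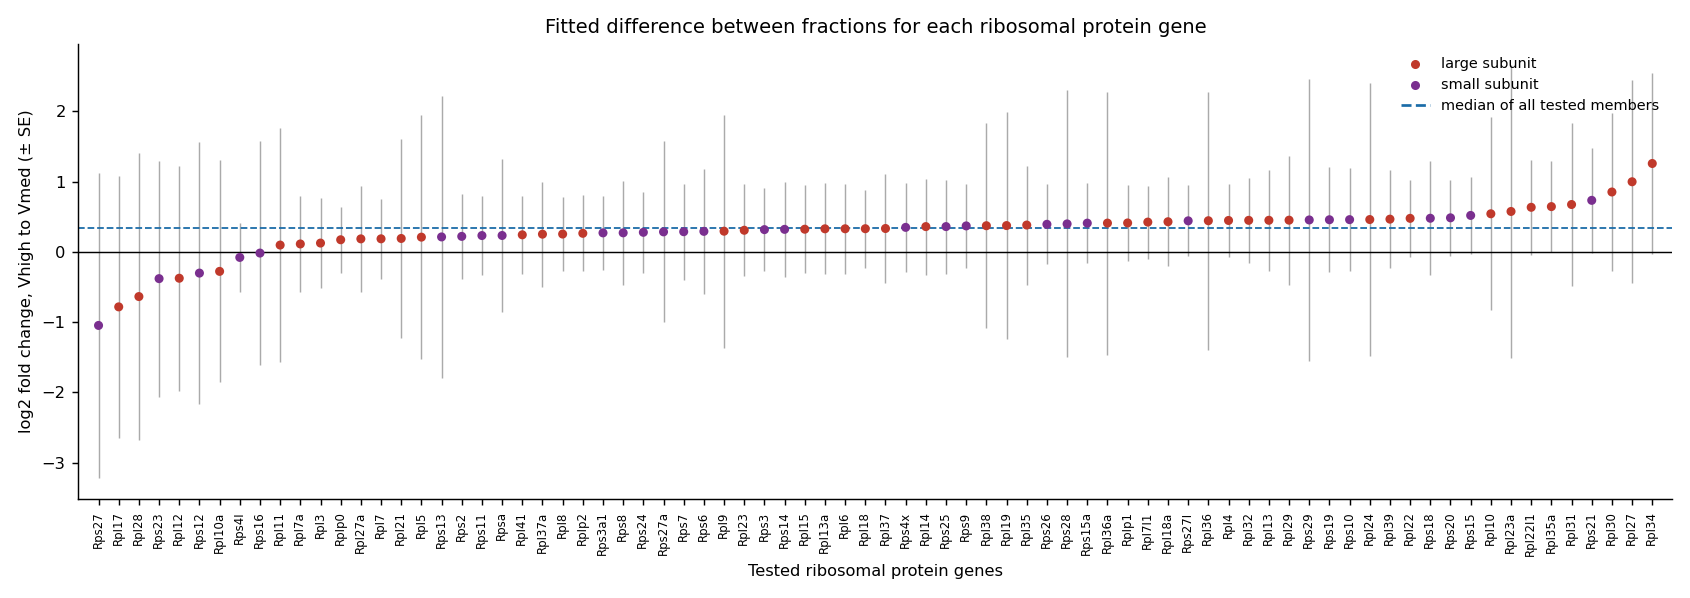
Fitted log2 fold change of Vhigh over Vmed with its standard error (vertical axis) for 78 of the 80 tested ribosomal protein genes in order of size, with large subunit genes in red and small subunit genes in purple. Of these, 69 points lie above 0, the dashed line marks the median of 0.34 over all 80, and no gene passed the test.

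The 5 members with the highest fitted log2 fold change were Rpl34, Rpl27, Rpl30, Rps21 and Rpl31, all structural proteins of the ribosome. Rpl34 had 12.6, 3.37 and 12.4 CPM in Vmed and 29.9, 16.2 and 22.8 CPM in Vhigh (log2 fold change 1.26, standard error 1.29). Rpl27, a gene of the Diamond-Blackfan list, had 6.29, 6.87 and 8.34 CPM in Vmed and 16.5, 10.4 and 16.2 CPM in Vhigh (log2 fold change 1.00, standard error 1.44). In both genes the fractions did not overlap, at levels where 50.6% and 64.1% of windows are shared with other genes. Rps21 had 191, 97.1 and 63.4 CPM in Vmed and 372, 158 and 52.9 CPM in Vhigh (log2 fold change 0.73, standard error 0.75). Its highest and lowest libraries were both in Vhigh. Rpl30 (log2 fold change 0.85, standard error 1.13) and Rpl31 (0.67, standard error 1.15) lay between 8.80 and 37.1 CPM in the 6 libraries.

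The 5 members with the lowest values were Rps27, Rpl17, Rpl28, Rps23 and Rpl12, and all 5 had mean levels under 10 CPM. Rps27 had 8.35, 6.03 and 1.96 CPM in Vmed and 0, 2.95 and 5.32 CPM in Vhigh, where the count of 0 allows up to 0.281 CPM. The fitted value was -1.05 (standard error 2.17) and depends on the prior count. Rpl17 had 6.41, 5.66 and 2.99 CPM in Vmed and 1.03, 5.52 and 2.83 CPM in Vhigh (log2 fold change -0.78, standard error 1.87). Of these, Rpl17 had nearly equal values in pairs 2 and 3, and its difference lay mainly in pair 1. Rpl28 (-0.64, standard error 2.04), Rps23 (-0.38, standard error 1.68) and Rpl12 (-0.38, standard error 1.60) overlapped between the fractions. Each of these fold changes was smaller than its standard error.

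Across replicate numbers, the members fell into a larger and a smaller set. In both fractions, 53 of the 84 members were lower in replicate 3 than in replicate 1, against 24.1% of all tested genes. In both fractions, 15 members were higher in replicate 3 than in replicate 1, against 39.7% of all tested genes. Replicate 1 was the highest of the 3 libraries of both fractions for 51 members, against 14.5% of all tested genes. These 51 had a median of the mean levels of 217 CPM and a median of 50.6% shared windows. Replicate 3 was the highest in both for 14 members, against 20.9% of all tested genes, so this set was no larger than that share. Among the 14 were Rpl5, Rpl10a, Rpl19, Rpl24, Rpl26, Rpl36a, Rpl38, Rps2, Rps7, Rps13, Rps16, Rps23 and Rps29. These 14 had a median level of 6.86 CPM and a median of 79.2% shared windows. The members named here for their replicate order were chosen after their values were seen.

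Rps18, a small subunit protein of the head region, had 375, 195 and 51.2 CPM in Vmed replicates 1, 2 and 3 and 491, 321 and 66.6 CPM in Vhigh, a log2 ratio of replicate 3 to replicate 1 of -2.86 in Vmed and -2.87 in Vhigh. Rps2, a small subunit protein at the mRNA entry channel, had 143, 109 and 347 CPM in Vmed and 198, 148 and 361 CPM in Vhigh, with ratios of 1.27 and 0.87. Rps16 had 4.58, 6.27 and 21.9 CPM in Vmed and 3.00, 5.62 and 24.4 CPM in Vhigh. Rps18, Rps2 and Rps16, which were chosen after their values were seen, each had the same order of replicates in both fractions. Other members did not, among them Rpl12, Rpl31 and Rpsa. Across the 84 genes the log2 ratio of replicate 3 to replicate 1 in Vmed correlated with that in Vhigh with a Pearson r of 0.73 and a Spearman rho of 0.81. The genes are not independent replicates, the points share sequence length and base composition, and the 4 libraries are all different.

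**Figure D5:**
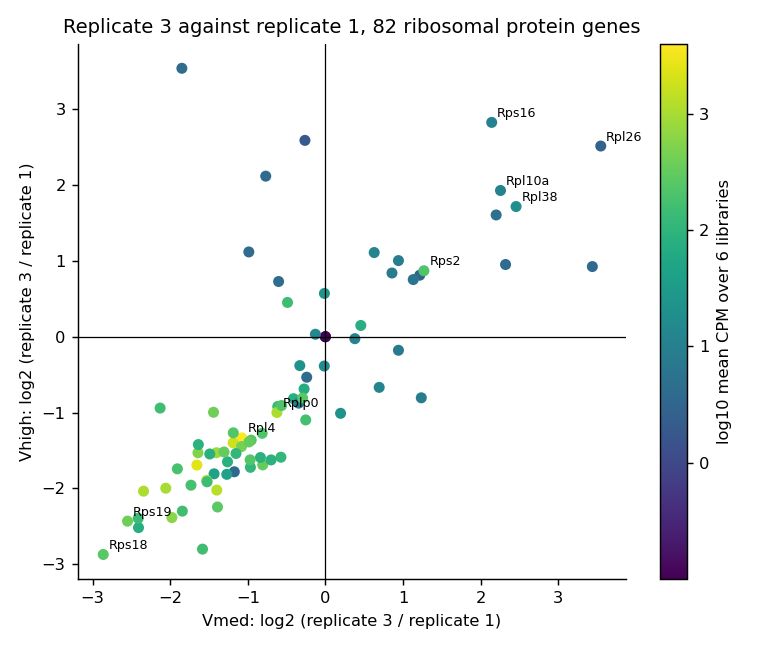
Log2 ratio of replicate 3 to replicate 1 in Vhigh (vertical axis) against the same ratio in Vmed (horizontal axis) for 82 ribosomal protein genes, colored by mean CPM. Most genes lie at the lower left, with Rps18 lowest in both fractions, and a smaller set of mostly low-level genes, with Rpl38, Rpl10a and Rps16, lies at the upper right.

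Members with known roles outside the bulk of the ribosome were followed singly. Rps19, the gene most often mutated in Diamond-Blackfan anemia, had 605, 267 and 103 CPM in Vmed and 792, 408 and 146 CPM in Vhigh (log2 fold change 0.46, standard error 0.75). It was higher in Vhigh in 3 of 3 pairs, and its replicates spanned a wider range than the fractions. Rplp0, the base of the stalk that recruits translation factors, had 1234, 848 and 800 CPM in Vmed and 1542, 963 and 771 CPM in Vhigh (log2 fold change 0.17, standard error 0.47). Its fractions overlapped, and pair 3 had the opposite direction to pairs 1 and 2.

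Rpl5 and Rpl11, which bind the Mdm2 protein together with the ribosomal 5S RNA when ribosome assembly fails, were both measured at low level. Rpl5 had 3.20, 5.54 and 7.62 CPM in Vmed and 4.97, 5.52 and 8.72 CPM in Vhigh (log2 fold change 0.21, standard error 1.74). Rpl11 had 6.41, 2.77 and 12.8 CPM in Vmed and 9.94, 4.97 and 8.72 CPM in Vhigh. The fitted value was 0.10 on the log2 scale (standard error 1.66), and it turned to -0.02 when at least 10 counts were required in every library or when libraries were thinned to the smallest. Rpl38, which is needed for normal translation of Hox mRNAs in the mouse embryo, had 6.75, 2.65 and 39.3 CPM in Vmed and 13.2, 5.62 and 44.6 CPM in Vhigh (log2 fold change 0.37, standard error 1.46). Its level was several times higher in replicate 3 than in the other replicates of both fractions, and it was higher in Vhigh in 3 of 3 pairs. Rpsa, a small subunit protein that also serves as a laminin receptor, had 28.1, 9.88 and 27.9 CPM in Vmed and 22.3, 24.2 and 33.4 CPM in Vhigh (log2 fold change 0.23, standard error 1.08), with overlapping fractions.

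All 19 genes of the Diamond-Blackfan anemia list were among the members, and 18 were tested. The log2 fold change was above 0 in 17 of the 18, beside 88.8% of all tested members and 48.9% of all tested genes, and below 0 in Rps27, and 0 had an adjusted or an unadjusted p under 0.05. Their median log2 fold change was 0.39, beside 0.34 over all tested members. In 8 of the 19 (42.1%), Vhigh was higher in 3 of 3 pairs, beside 46.4% of all members and 15.2% of all tested genes. Rpl26 was not tested, with 0.23, 0.36 and 8.03 CPM in Vmed and 0.75, 0.37 and 6.65 CPM in Vhigh, so that it was near the limit of 3 counts (0.249 to 0.362 CPM) in several libraries and clearly present in replicate 3 of both fractions.

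The balance of the 2 subunits was nearly the same in both fractions. The ratio of summed large to summed small subunit CPM was 1.101, 1.307 and 1.295 in Vmed and 1.147, 1.256 and 1.305 in Vhigh. The lowest ratio of each fraction was in replicate 1. The difference of the mean log2 ratios was 0.0043, beside SDs of 0.14 in Vmed and 0.10 in Vhigh (n = 3 each), and its sign depended on the libraries and genes included.

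Several ribosomal proteins have a second gene copy with expression restricted to some tissues or states, and 4 of the 7 paralogs were measured in every library. Rps27l, a target of p53, is a paralog of Rps27. The first 120 coding bases of both are shown in the 5′ to 3′ direction, with the bases that differ in capitals. This pair was chosen because its 2 genes differed most in level among the 4 pairs whose paralog was measured in every library.
Rps27 (gene at chr3:90212522-90213651, minus strand): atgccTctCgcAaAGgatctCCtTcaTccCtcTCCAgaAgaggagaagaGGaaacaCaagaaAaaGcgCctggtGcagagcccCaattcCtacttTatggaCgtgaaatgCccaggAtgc
Rps27l (gene at chr9:66946086-66949516, plus strand): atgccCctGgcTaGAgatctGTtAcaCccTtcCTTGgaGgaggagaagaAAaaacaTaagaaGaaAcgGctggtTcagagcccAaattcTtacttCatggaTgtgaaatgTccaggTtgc
In the GENCODE models both coding sequences were 255 bases long and differed at 61 positions, with no shared run longer than 11 bases, so that no read of 50 bases from the coding part fits both. Rps27l had 249, 129 and 168 CPM in Vmed and 333, 245 and 177 CPM in Vhigh. It was higher in Vhigh in 3 of 3 pairs (log2 fold change 0.44, standard error 0.50). Its level was far above that of Rps27, of whose windows 98.6% occur in other annotated genes, against 22.4% for Rps27l.

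The log2 ratio of paralog to partner was compared between the fractions for 4 pairs of genes by exact two-sided permutation, which cannot go below 0.1 with 3 libraries against 3. For Rps27l to Rps27 the difference of the mean log2 ratios was 1.75 (exact permutation p = 0.2, adjusted over the 4 pairs 0.4), but it was 0.47 without Vhigh replicate 1, in which Rps27 had a count of 0. In the same-numbered pairs 1, 2 and 3 this ratio differed by 4.57, 1.84 and -1.17 (exact sign-flip permutation p = 0.5), so pair 3 had the opposite direction. Rpl22, an RNA-binding protein needed in lymphocyte development, had 373, 239 and 213 CPM in Vmed and 614, 351 and 190 CPM in Vhigh. Its paralog Rpl22l1 had 121, 52.8 and 81.1 CPM in Vmed and 234, 81.2 and 77.5 CPM in Vhigh. Their log2 ratio differed by 0.13 (exact permutation p = 0.6, adjusted 0.6) and was lowest in replicate 2 of both fractions. Within the pairs numbered 1, 2 and 3 it was higher in Vhigh by 0.23, 0.06 and 0.10, where an exact sign-flip permutation gave p = 0.25, the smallest that 3 pairs allow.

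Rpl7l1, a paralog of Rpl7 that takes part in ribosome assembly, had 417, 412 and 153 CPM in Vmed and 553, 510 and 277 CPM in Vhigh. It was higher in Vhigh in 3 of 3 pairs (log2 fold change 0.42, standard error 0.52), and its log2 ratio to Rpl7 differed by 0.30 (exact permutation p = 0.2, adjusted 0.4). Within the pairs this ratio was higher in Vhigh by 0.27, 0.015 and 0.61 (exact sign-flip permutation p = 0.25). Rps4l, which GENCODE annotates as a transcribed processed pseudogene, had 144, 185 and 103 CPM in Vmed and 110, 158 and 151 CPM in Vhigh. It was lower in Vhigh in pairs 1 and 2 and higher in pair 3, and its log2 ratio to Rps4x differed by -0.33 (exact permutation p = 0.6, adjusted 0.6). The 3 remaining paralogs are known from testis (Rpl10l and Rpl39l) and striated muscle (Rpl3l). Rpl39l had 1.21 CPM in Vmed replicate 2 and 3.13 CPM in Vhigh replicate 2, and 0 counts in the other libraries. Rpl10l had 0.12 CPM in Vmed replicate 2 and 1.84 CPM in Vhigh replicate 2, and 0 counts in the others. Rpl3l had a value above 0 only in Vmed replicate 2, with 0.60 CPM. All values above 0 of these 3 paralogs were in replicate 2, and a count of 0 allows up to 0.249 to 0.362 CPM. Replicate 2 also had the most genes with a count in each fraction (15812 in Vmed and 18460 in Vhigh). Its reads outside annotated genes per count on a gene were the most numerous too (0.98 and 1.56). The part of these properties in the 3 paralogs was not tested.

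Proteins of the cytosolic ribosome whose symbols do not follow the rule included Fau, Rpl36al and Gnb2l1 (now called Rack1). Gnb2l1, a small subunit scaffold for kinases, had 1978, 1768 and 1156 CPM in Vmed and 3353, 2482 and 1144 CPM in Vhigh (log2 fold change 0.49, standard error 0.51). Rpl36al had 66.0, 40.6 and 72.7 CPM in Vmed and 79.1, 57.6 and 64.5 CPM in Vhigh (log2 fold change 0.14, standard error 0.67). These and Fau had fitted values above 0, 0 of the 3 passed the test (0 at an unadjusted p under 0.05), and their fractions overlapped.

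The other genes of ribosome production and translation were set beside the members. Of 68 ribosome biogenesis genes, which make, process and assemble ribosomal RNA, 64 had a log2 fold change above 0, against 48.9% of all tested genes, and the median was 0.63. None had an adjusted p under 0.05, and 4 (Ddx10, Utp20, Nop58 and Rrp12) had an unadjusted p under 0.05, all higher in Vhigh, where 0.867% of all tested genes were called in this direction. With the replicate block 16 had an unadjusted p under 0.05, all higher in Vhigh, against 1.8% of all tested genes, and none had an adjusted p under 0.05. In 43 of the 68, Vhigh was higher in 3 of 3 pairs, against 15.2% of all tested genes, and in 14 every Vhigh library lay above every Vmed library, against 4.15%. Utp20, a protein of the small subunit processome, had 6.29, 56.0 and 23.8 CPM in Vmed and 191, 148 and 84.8 CPM in Vhigh (log2 fold change 2.31, standard error 0.79). Utp15, of the same complex, had the lowest value of the list, -0.72 (standard error 1.24), with 0.281 CPM in Vhigh replicate 1. The summed level of the list was 10595, 12288 and 11626 CPM in Vmed and 20053, 18753 and 16683 CPM in Vhigh, and the fractions did not overlap, unlike those of the ribosomal proteins. Whether the 2 lists differed in their change was not tested.

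Of 77 mitochondrial ribosomal protein genes, all tested, 62 were above 0, against 48.9% of all tested genes, with a median log2 fold change of 0.32. In 36 of the 77, Vhigh was higher in 3 of 3 pairs, against 15.2% of all tested genes. Mrps24 had the highest value of 1.09 (standard error 1.21) and Mrps9 the lowest of -0.97 (standard error 0.70). Their summed levels of 9011, 6272 and 5430 CPM in Vmed and 11269, 8737 and 6654 CPM in Vhigh had the same order of replicates as the cytosolic ribosomal proteins. Their transcripts shared a median of 3.01% of 50-base windows with other genes.

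Of 50 translation factors, 49 were tested, and 38 were above 0, against 48.9% of all tested genes, with a median of 0.22. Eif2b3, a subunit of the exchange factor of initiation factor eIF2, had the highest value of 0.77 (standard error 0.59), and Eif4g2, an initiation factor that acts without the cap-binding protein, the lowest of -0.42 (standard error 0.43). Among 20 genes of TOR and Myc control of ribosome production, 14 were above 0, against the same 48.9%, with a median of 0.18. Myc had 5.83, 122 and 132 CPM in Vmed and 72.3, 253 and 305 CPM in Vhigh (log2 fold change 1.23, standard error 0.92), higher in Vhigh in 3 of 3 pairs. Mxd4, a Myc antagonist, had the lowest value of -2.73 (standard error 2.27).

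Of 10 genes of nucleolar stress and p53, 6 were above 0, against 48.9% of all tested genes, with a median of 0.06. Bbc3 and Eda2r, both p53 targets, had the highest (2.24, standard error 2.12) and the lowest value (-3.20, standard error 1.88). Of 16 proliferation genes, 11 were above 0, against the same 48.9%, with a median of 0.06. They lay between Mki67 at -0.35 (standard error 0.50) and Mcm6 at 0.63 (standard error 0.55). None of the genes in these 5 lists, from the mitochondrial ribosomal proteins to the proliferation genes, had an adjusted or an unadjusted p under 0.05 in edgeR's quasi-likelihood test by fraction alone. With the replicate block, 6 genes reached an unadjusted p under 0.05 (Mrpl36, Mrpl42, Eif5a, Myc, Mycn and Mcm6), all higher in Vhigh. The 5 lists held 77, 49, 20, 10 and 16 tested genes in turn. The same blocked test called 4.16% of all tested genes at this level, and 1.8% of all tested genes in this direction. After adjustment, no gene of these lists stayed under 0.05.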

How the data were processed

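Total RNA of the sorted cells was isolated with the mirVana kit, amplified by the SMARTer protocol and sequenced as single reads of 50 bases. Alignment by the authors was to GRCm38 (mm10), and the submitters' processing notes name TopHat, Bowtie 1.1.2 and HTSeq. The annotation release is not given in the sources used here. The deposited values are raw counts per gene and library, without normalization. Lines of unassigned reads were left out of the totals, and reads mapping to more than 1 place are tallied only there.

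The members and gene lists were chosen with earlier results of these data known. Counts were tested with edgeR 4.0.16 in R 4.3.3: genes kept by filterByExpr, TMM factors, quasi-likelihood test of a model holding only the fraction, Benjamini-Hochberg adjustment over 12688 genes, threshold 0.05. CPM use the total of gene counts. RPKM use the principal GENCODE M21 transcript. Alternatives used limma 3.58.1 and DESeq2 1.42.0, other scalings, filters and tests, thinned counts, the replicate number as a block and each library left out. The fit was also run on simulated counts with far less spread between libraries than in these data, so its power here was not tested.

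The labels give both fractions the same replicate numbers. Deviations from the fraction means correlated, over all tested genes, with r of 0.21, 0.21 and 0.39 for the libraries numbered 1, 2 and 3. For different numbers r was between -0.29 and -0.01, a contrast partly built in because deviations within a fraction cancel out. In levels, Vmed replicate 1 correlated more with Vhigh replicate 2 (r of 0.69) than with Vhigh replicate 1 (0.59). Vmed replicates 2 and 3 correlated most with the Vhigh library of their own number (0.80 and 0.79). The numbers were taken to pair the libraries, which is an assumption. The study describes 3 independent experiments. If these were not separate pools of embryos, p-values measure technical spread only.

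Named members are those with an unadjusted p under 0.05 (0 members), the 5 highest and 5 lowest log2 fold changes, the highest per length, listed paralogs and partners, Rps19, Rpl5, Rpl11, Rpl38, Rplp0 and Rpsa, members not detected in a library, and the highest and lowest gene of each other list. Some genes that these rules or lists select are not reported here singly, in text or plots, and stay in counts and sums. A count of 3 corresponds to 0.249 to 0.362 CPM. Without molecular identifiers, intervals and these limits describe counting error alone. Shared windows were searched letter for letter, on both strands, in GENCODE M21 transcripts, which leave out unannotated copies. The counting is not stated to use strand.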

Additional observations from a re-analysis of the deposited data

Results flagged for a closer look

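Rows for 7 ribosomal protein pseudogenes were outside the comparisons. They held 503, 211 and 87 counts in Vmed replicates 1, 2 and 3 and 1018, 481 and 122 counts in Vhigh, above the limit of 3 counts in each library. Most of these counts were on Rpl14-ps1, with 51.8, 21.1 and 6.59 CPM in Vmed and 87.1, 40.9 and 6.81 CPM in Vhigh. The replicates had the same order as the summed ribosomal protein genes, and Vhigh was higher in each same-numbered pair. Rpl14 itself had 880, 464 and 223 CPM in Vmed and 1172, 627 and 224 CPM in Vhigh, and 49.3% of its 50-base windows occur in 1 other annotated gene. The part of shared sequence in these counts was not tested.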

How the results depend on the processing

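No member passed the threshold under any alternative run. Over all genes, the count of 0 became 37 with no filter beyond 1 count, 21 with the likelihood ratio test, 51 with DESeq2, and 74 with the replicate block and the likelihood ratio test. It stayed 0 with the block in the quasi-likelihood test, and ranged from 0 to 1 with a library left out. At an unadjusted p under 0.05 the main test gave 259 genes and the blocked test 528. No gene in the counts of the members or of the other lists had an adjusted p under 0.05 with the block either, though it added genes of the other lists at an unadjusted p under 0.05. The median log2 fold change of the members was 0.25 to 0.36 over the other settings. With a library left out it ranged from -0.15 to 0.73, and that of translation factors from 0.12 to 0.35, of mitochondrial ribosomal proteins from 0.039 to 0.62. The difference of the log2 sum of the members ranged from -0.023 to 0.75 with a library left out, and as sign changes within the replicate block it was 0.34.

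The log2 ratio of large to small subunit was -0.0024 without the paralogs and ranged from -0.076 to 0.057 with a library left out. Of the 80 tested members, 19 kept the sign of their log2 fold change with each library left out. The ranges given here are therefore only some of those that crossed 0. As log2 ratios they were -0.090 to 0.39 for Rpl22l1 to Rpl22 and -0.77 to 0.22 for Rps4l to Rps4x. As log2 fold changes they were -0.30 to 0.77 for Rpl11, -0.16 to 0.84 for Rpl22, -0.21 to 1.01 for Rpl22l1, -0.10 to 0.31 for Rpl36al, -0.71 to 2.16 for Rpl38, -0.0097 to 0.77 for Rpl4, -0.044 to 0.55 for Rpl5, -0.19 to 0.69 for Rpl8, -0.27 to 0.43 for Rplp0, -0.40 to 1.33 for Rps19, -0.32 to 1.33 for Rps21, -0.86 to 0.33 for Rps23 and -0.15 to 0.48 for Rpsa. Rps18 (-0.28 to 1.29), Rps2 (-0.18 to 0.89), Rps16 (-1.36 to 1.02) and Rpl14 (-0.46 to 1.02) crossed 0 as well. Rpl11 was -0.02 with at least 10 counts in every library (-0.017) and when thinned (-0.021). The causes were not tested.

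Chosen after seeing the data, the members at 20 CPM or more gave a median of 0.35 and those with under 50% shared windows 0.36. Members under 20 CPM had few counts, and their standard errors exceeded 1 in most cases.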
